A study of Mus musculus with 20 samples.

Results

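The interferon response genes described here are Ifi27l2a, Zbp1, Isg15, Irf7, Ifit1, Ifit3, Oasl2, Rsad2 and Usp18, 9 of the 30063 genes that a single-symbol probe set measured. They were taken by symbol, each from the probe set with the highest mean, and each had 1 such probe set. Ifit1 and Ifit3 lie on chromosome 19, Ifi27l2a and Rsad2 on chromosome 12, and the other 5 on chromosomes of their own. The 20 Affymetrix arrays held pancreas RNA of C57BL/6J mice on the day of birth (P0) and at embryonic day 18.5 (E18.5). At P0 there were 6 arrays of inceptor-deficient mice (KO; Iir -/-) and 5 of wild type (WT; Iir +/+), all from pups starved for 5 h. At E18.5 there were 5 KO and 4 WT arrays, from embryos whose mothers had been starved for 2 h. Inceptor, encoded by Elapor1, is a transmembrane protein that dampens signalling by the insulin receptor. The labels give no sex or litter and do not say whether each array was a separate animal, so p-values cover the spread between arrays, which may be technical. Age came with birth, a different fast and a separate run of sample numbers, and these cannot be told apart.

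Elapor1 was low on every KO array. Its log2 signal averaged 6.05 ± 0.30 in KO and 11.54 ± 0.35 in WT pancreas at P0 (SD, n = 6 and 5), and 6.31 ± 0.30 in KO and 11.86 ± 0.22 in WT pancreas at E18.5 (SD, n = 5 and 4). Array medians lay between 4.81 and 4.94, values ended at a ceiling of 19.932, and 17993 genes passed the signal filter and were tested. The acinar markers Cpa1 and Ctrb1 sat at this ceiling on every array. Liver markers varied among arrays, with means of 7.58 to 13.49, and 4 arrays (P0 KO 4, E18.5 KO 1, E18.5 KO 2 and E18.5 WT 4) had a mean over 7 for intestinal or skeletal muscle markers. The number of arrays limits the precision of every value.

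Type I interferons are secreted by cells that sense foreign or misplaced nucleic acid. They bind a receptor on the cell surface, and its signal reaches the nucleus, where interferon-stimulated response elements in promoters receive it. The genes switched on in this way limit viral replication, modify other proteins, or strengthen and later damp the response itself. Their basal level in a tissue without infection depends on low constitutive signalling and on the cells present.

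Promoter sequence was available for 6 of the 9 genes (RefSeq, GRCm38.p6), and Ifi27l2a, Zbp1 and Usp18 had no entry. The core of the interferon-stimulated response element, 2 copies of GAAA with any 2 bases between them, or on the other strand 2 copies of TTTC with any 2 bases between them, was searched in the window of 250 bases before to 50 after each start, overlapping matches included. It was found in 4 of the 6 windows (Isg15, Ifit1, Ifit3 and Rsad2), and in 3.44% of all 32851 windows in the table. The windows of Irf7 and Oasl2 held no match to these letters. The stretches around the matches are shown on the gene's own strand, since they are the sequence feature that 4 of the genes share; capitals mark the motif.
Isg15 (chr4:156200855-156200916, minus strand): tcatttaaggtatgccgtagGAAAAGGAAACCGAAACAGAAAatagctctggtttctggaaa
Ifit1 (chr19:34640765-34640833, plus strand): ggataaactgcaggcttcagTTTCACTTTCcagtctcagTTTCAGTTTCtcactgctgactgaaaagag
Ifit3 (chr19:34583353-34583436, plus strand): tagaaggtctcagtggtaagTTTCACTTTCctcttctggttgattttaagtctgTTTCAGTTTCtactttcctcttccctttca
Rsad2 (chr12:26456543-26456592, minus strand): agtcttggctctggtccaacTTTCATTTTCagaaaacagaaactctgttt
Counted from the annotated start, the motif began at -78, -72 and -66 in Isg15, where the 3 matches overlap into 1 run. It began at -104 and -85 in Ifit1, at -156 and -122 in Ifit3, and at -120 in Rsad2. A match of letters is a description and no binding was measured.

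The 9 genes differed widely in signal. Ifi27l2a, a small hydrophobic membrane protein of the ISG12 family, averaged 10.65 over the 20 arrays, above 89.8% of all tested genes. Isg15, a ubiquitin-like protein that is attached to other proteins, averaged 8.46. Ifit3, which stabilises IFIT1 in human cells, averaged 6.77, and Rsad2 (viperin), an enzyme that makes an antiviral nucleotide, averaged 6.20. The other 5 genes were weakly measured, with a mean less than 1 log2 unit above the mean array median of 4.88. These were Usp18 at 5.69, Zbp1 at 5.64, Ifit1 at 5.46, Oasl2 at 5.23 and Irf7 at 5.13. Signals of different probe sets are not on a scale per length, so these means place each gene against background and do not rank transcript amounts. A small log2 difference of a weakly measured gene may understate the change in RNA, since background makes up much of its signal.

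**Figure D1:**
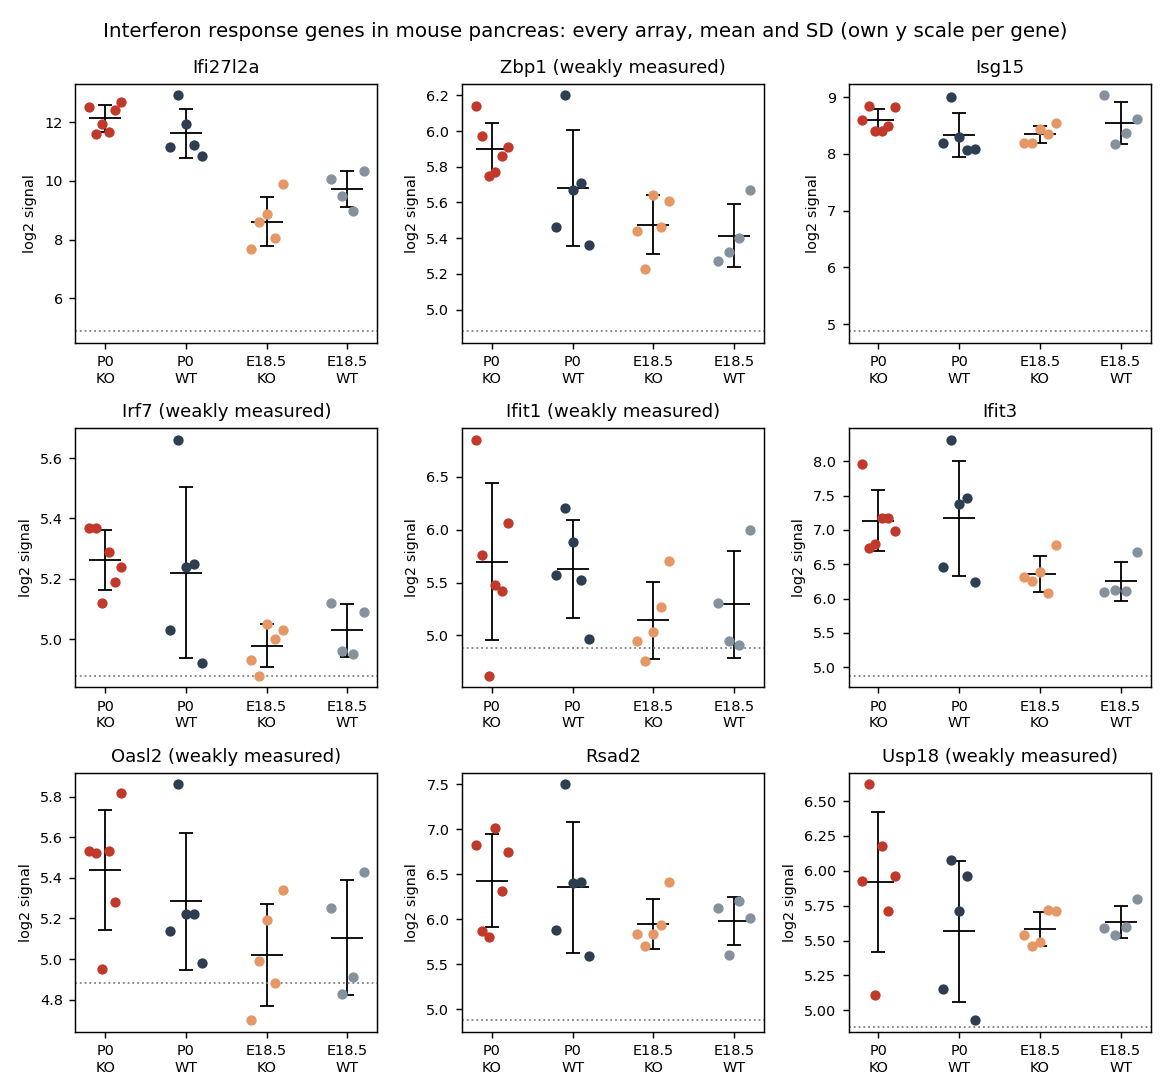
Log2 signal (y axis, own scale per gene) of the 9 interferon response genes on each of the 20 arrays (points) by group (x axis), with group mean and SD (bars); the dotted line is the mean array median of 4.88. Ifi27l2a separates the P0 arrays (10.84 to 12.92) from the E18.5 arrays (7.68 to 10.35), while Isg15 lies between 8.07 and 9.03 at both ages.

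Ifi27l2a carried the large difference around birth. In P0 KO pancreas its log2 signal ran from 11.62 over a median of 12.17 to 12.69, and in E18.5 KO pancreas it was 7.68, 8.59, 8.88, 8.04 and 9.88. In P0 WT pancreas it was 11.16, 12.92, 11.95, 11.24 and 10.84, and in E18.5 WT pancreas 10.06, 9.49, 8.98 and 10.35. Every P0 array was above every E18.5 array, in each genotype and across both. Ifi27l2a rose 11.5-fold in KO (P0 minus E18.5, log2 difference 3.52 ± 0.40 SE, limma adjusted p = 2.58e-05) and 3.74-fold in WT (1.90 ± 0.45, adjusted p = 0.0141). In KO it passed in each of 15 other settings and without any one array (adjusted p 1.05e-05 to 0.00261). In WT the call ended without E18.5 WT 2 (adjusted p = 0.05) or E18.5 WT 3 (0.0521), and with the macrophage marker mean or the running sample number as a covariate (0.0594 and 0.0542). The age difference was larger in KO by 1.62 ± 0.60, but this difference of differences did not pass in limma (adjusted p = 0.635 over all tested genes).

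The genes that sense nucleic acid and pass the signal on moved by less. Zbp1, which binds nucleic acid in the Z conformation and can start necroptosis, ran from 5.75 over 5.88 to 6.14 in P0 KO pancreas, and was 5.44, 5.23, 5.64, 5.46 and 5.61 in E18.5 KO pancreas. In WT it was 5.46, 6.20, 5.67, 5.71 and 5.36 at P0 and 5.27, 5.32, 5.40 and 5.67 at E18.5. The ages did not overlap in KO and overlapped in WT. Zbp1 rose in KO (0.43 ± 0.13, adjusted p = 0.021) and its difference in WT did not pass (0.27 ± 0.14, adjusted p = 0.256), while the difference between these did not pass either (0.16 ± 0.19, adjusted p = 0.902). Irf7, the transcription factor that amplifies type I interferon production, ran from 5.12 over 5.26 to 5.37 in P0 KO pancreas and was 4.93, 4.88, 5.05, 5.00 and 5.03 in E18.5 KO pancreas. It was 5.03, 5.66, 5.24, 5.25 and 4.92 in WT at P0 and 5.12, 4.96, 4.95 and 5.09 in WT at E18.5. Again the ages did not overlap in KO and overlapped in WT, on a signal close to background throughout. Irf7 rose in KO (0.28 ± 0.10, adjusted p = 0.0414), and its difference of 0.19 ± 0.11 in WT did not pass (adjusted p = 0.296). Both KO calls were fragile. That of Zbp1 ended in 5 other settings and without E18.5 KO 2 (adjusted p = 0.0654), and that of Irf7 in 7 other settings and in 9 of the 20 fits with 1 array left out (up to 0.0979).

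Among the effectors, Ifit3 ran from 6.73 over 7.08 to 7.96 in P0 KO pancreas and was 6.31, 6.25, 6.39, 6.08 and 6.78 in E18.5 KO pancreas. In WT it was 6.46, 8.31, 7.38, 7.46 and 6.24 at P0 and 6.09, 6.13, 6.11 and 6.68 at E18.5. In KO only E18.5 KO 5 reached into the P0 range, and in WT the arrays P0 WT 1 and P0 WT 5 lay below E18.5 WT 4. Its differences of 0.78 ± 0.30 in KO (adjusted p = 0.0683) and 0.92 ± 0.33 in WT (adjusted p = 0.0899) did not pass. In KO it passed with array weights (0.0268), with the compared groups alone (0.0246) and without P0 WT 2 (0.0285) or P0 WT 5 (0.043), and in WT without P0 WT 1 (0.0489) or P0 WT 5 (0.0372). Averaged over the genotypes, a contrast added after the data were seen, Ifit3 rose by 0.85 ± 0.22, or 1.80-fold (adjusted p = 0.00752). In the same contrast Ifi27l2a rose by 2.71 ± 0.30 (adjusted p = 7.27e-06), Zbp1 by 0.35 ± 0.09 (0.00951) and Irf7 by 0.24 ± 0.07 (0.0185). The other 5 genes did not pass in it, and Isg15 had no settled direction there, since its difference of 0.02 turned below 0 in 7 other settings. The averaged calls of Zbp1, Irf7 and Ifit3 ended with the leukocyte or macrophage marker mean or the running sample number as a covariate, and that of Irf7 also without the 4 arrays with high intestinal or muscle marker means (0.0998). With the macrophage covariate the differences were 0.342 for Zbp1, 0.235 for Irf7 and 0.934 for Ifit3 (adjusted p 0.0515 to 0.129). With the leukocyte covariate they were 0.251, 0.185 and 0.618 (0.0521 to 0.0955), and with the sample number 0.325, 0.103 and 0.744 (0.302 to 0.698).

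Isg15, with the second highest signal of the 9, behaved unlike Ifi27l2a. It ran from 8.41 over 8.54 to 8.85 in P0 KO pancreas and was 8.19, 8.19, 8.44, 8.35 and 8.54 in E18.5 KO pancreas. In WT it was 8.20, 9.01, 8.29, 8.07 and 8.09 at P0 and 9.03, 8.18, 8.37 and 8.61 at E18.5. The ages overlapped in both genotypes, with differences of 0.25 ± 0.17 in KO (adjusted p = 0.31) and -0.21 ± 0.19 in WT (adjusted p = 0.513). Their 95% intervals were -0.10 to 0.60 in KO and -0.60 to 0.17 in WT, so a change of the size seen in Ifi27l2a lay outside both.

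Ifit1, which binds foreign RNA by its cap, spread widely within groups. It ran from 4.62 over 5.62 to 6.85 in P0 KO pancreas, against 4.76 to 5.70 in E18.5 KO pancreas, and from 4.97 to 6.21 in WT at P0, against 4.91 to 6.00 in WT at E18.5. Its age differences were 0.56 ± 0.32 in KO (adjusted p = 0.231) and 0.34 ± 0.35 in WT (adjusted p = 0.608). Rsad2 ran from 5.80 over 6.53 to 7.02 in P0 KO pancreas, against 5.70 to 6.42 in E18.5 KO pancreas. In WT it ran from 5.59 to 7.50 at P0, against 5.60 to 6.20 at E18.5. Its differences were 0.48 ± 0.29 in KO (adjusted p = 0.251) and 0.38 ± 0.32 in WT (adjusted p = 0.503). Oasl2, an oligoadenylate synthetase-like protein, ran from 4.95 to 5.82 in P0 KO, 4.98 to 5.86 in P0 WT, 4.70 to 5.34 in E18.5 KO and 4.83 to 5.43 in E18.5 WT pancreas. Its difference in KO was 0.42 ± 0.17 (adjusted p = 0.0863) and in WT 0.18 ± 0.19 (adjusted p = 0.614). Usp18, which removes Isg15 from proteins and damps signalling at the type I receptor, ran from 5.11 to 6.62 in P0 KO and 4.93 to 6.08 in P0 WT pancreas, and only from 5.46 to 5.72 in E18.5 KO and 5.54 to 5.80 in E18.5 WT pancreas. Its means differed by 0.34 ± 0.22 in KO (adjusted p = 0.31) and -0.07 ± 0.25 in WT (adjusted p = 0.913). Between the ages none of these 4 genes passed in either genotype, and each had overlapping groups.

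In all, 3 of the 9 genes rose in KO between E18.5 and P0, beside 11.3% of all 17993 tested genes that rose and 11.7% that fell there. In WT 1 of 9 rose, beside 4.76% that rose and 4.1% that fell. The same 3 genes lay higher at P0 without overlap in KO, beside 5.9% of all tested genes, and the same 1 in WT, beside 6.24%. In KO all 9 differences were above 0 (48.7% of all tested genes were), with a median of 0.43, against -0.004 over all tested genes. In WT 7 of 9 were above 0 (51.2% of all tested genes), with a median of 0.27, against 0.006. The contrast averaged over genotypes called 4 of 9 higher, beside 15.8% of all tested genes. These genes moved together from array to array, as described further on, so their signs are not independent of each other. The KO and WT counts come from groups of different size and were not compared.

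**Figure D2:**
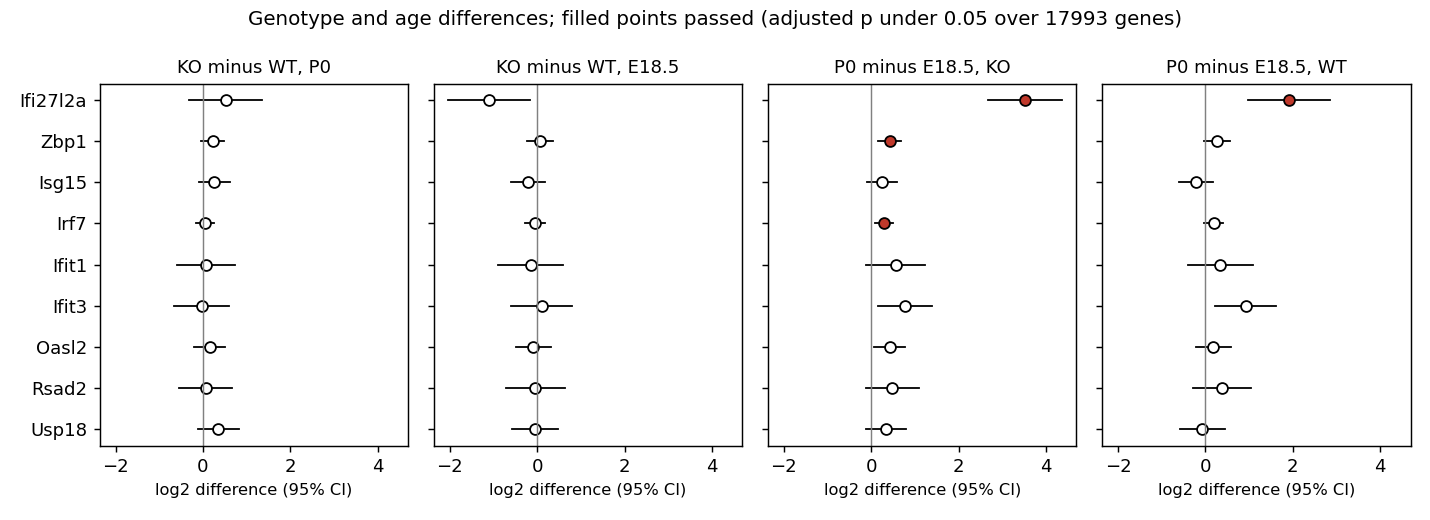
Log2 differences with 95% confidence intervals (x axis) of the 9 genes (y axis) between KO and WT at P0 and at E18.5, and between P0 and E18.5 in KO and in WT. Filled points passed at an adjusted p under 0.05: none in either genotype comparison, Ifi27l2a, Zbp1 and Irf7 with age in KO, and Ifi27l2a with age in WT.

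Loss of inceptor changed none of the 9 genes past the test. At P0, 0 of 9 passed in limma at an adjusted p under 0.05 and 0 at an unadjusted p under 0.05, and at E18.5 0 of 9 and 1 of 9, beside 0.0111% of all tested genes called at each age and 8.76% at P0 and 5.45% at E18.5 with an unadjusted p under 0.05. Ifi27l2a was the gene with the unadjusted p under 0.05: it averaged 8.62 ± 0.85 in KO and 9.72 ± 0.61 in WT pancreas at E18.5 (SD, n = 5 and 4), a difference of -1.11 ± 0.45 (adjusted p = 0.872). At P0 it averaged 12.14 ± 0.46 in KO and 11.62 ± 0.83 in WT pancreas (SD, n = 6 and 5), a difference of 0.52 ± 0.40 (adjusted p = 0.732). The KO and WT arrays overlapped at both ages.

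Isg15 leaned in opposite directions at the 2 ages. All 6 KO arrays at P0 were above the WT mean (8.60 ± 0.20 in KO and 8.33 ± 0.39 in WT; SD, n = 6 and 5) and all 5 KO arrays at E18.5 were below it (8.34 ± 0.15 in KO and 8.55 ± 0.37 in WT; SD, n = 5 and 4). The differences of 0.26 ± 0.17 at P0 (adjusted p = 0.665) and -0.20 ± 0.19 at E18.5 (adjusted p = 0.983) did not pass. Neither did the difference between them (0.47 ± 0.25, adjusted p = 0.748). The means of the 2 WT groups each included 1 array at 9.01 or above.

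Over the 9 genes, 8 differences between KO and WT were above 0 at P0 (51.5% of all tested genes), with a median of 0.15, and 2 at E18.5 (56.3%), with a median of -0.05. The liver markers leaned the same way, with 11 of 11 above 0 at P0 (median 1.70, 2 with an unadjusted p under 0.05) and 2 of 11 at E18.5 (median -0.66). None of them passed in limma, and their part in the lean of the 9 genes was not tested. The widest 95% intervals at P0 ran from -0.33 to 1.36 for Ifi27l2a, from -0.60 to 0.74 for Ifit1 and from -0.66 to 0.60 for Ifit3, so differences within these bounds could not be told from 0 with these arrays. The difference of the genotype effect between ages was called for 0 of 9 genes in limma, beside 0.0% of all tested genes, and 1 of 9 (Ifi27l2a) had an unadjusted p under 0.05, beside 6.98%.

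The 9 genes rose and fell together within groups. Each array's value was set against its own group mean, which removes age and genotype. Over the 20 arrays, all 36 pairs of these genes then correlated above 0, with Pearson r from 0.27 (Ifi27l2a with Usp18) to 0.87 (Zbp1 with Irf7) and a median of 0.67. The median was 0.74 over the 11 P0 arrays and 0.59 over the 9 E18.5 arrays. For comparison, the median r of each of the 9 genes with all tested genes lay between -0.04 and 0.03. The points share library, amplification and hybridisation, so these are descriptions of arrays and carry no p-value.

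Without P0 WT 2 the median r over the pairs was 0.55 and the lowest 0.06, and without P0 WT 5 they were 0.61 and 0.15. Leaving out any other single array gave a median of 0.66 to 0.71, and all 36 pairs stayed above 0 throughout, in fits added after the data were seen. The mean log2 signal of the 9 genes was 7.53 on P0 WT 2 and 7.30 on P0 KO 1, the highest, against 6.21 on P0 WT 5, 6.45 on P0 WT 1 and 6.50 on P0 KO 3, the lowest at P0. Both extremes at P0 were wild-type arrays. At E18.5 the mean was highest on E18.5 WT 4 (6.63) and E18.5 KO 5 (6.56) and lowest on E18.5 KO 1 (5.95). High and low arrays therefore occurred in both genotypes.

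**Figure D3:**
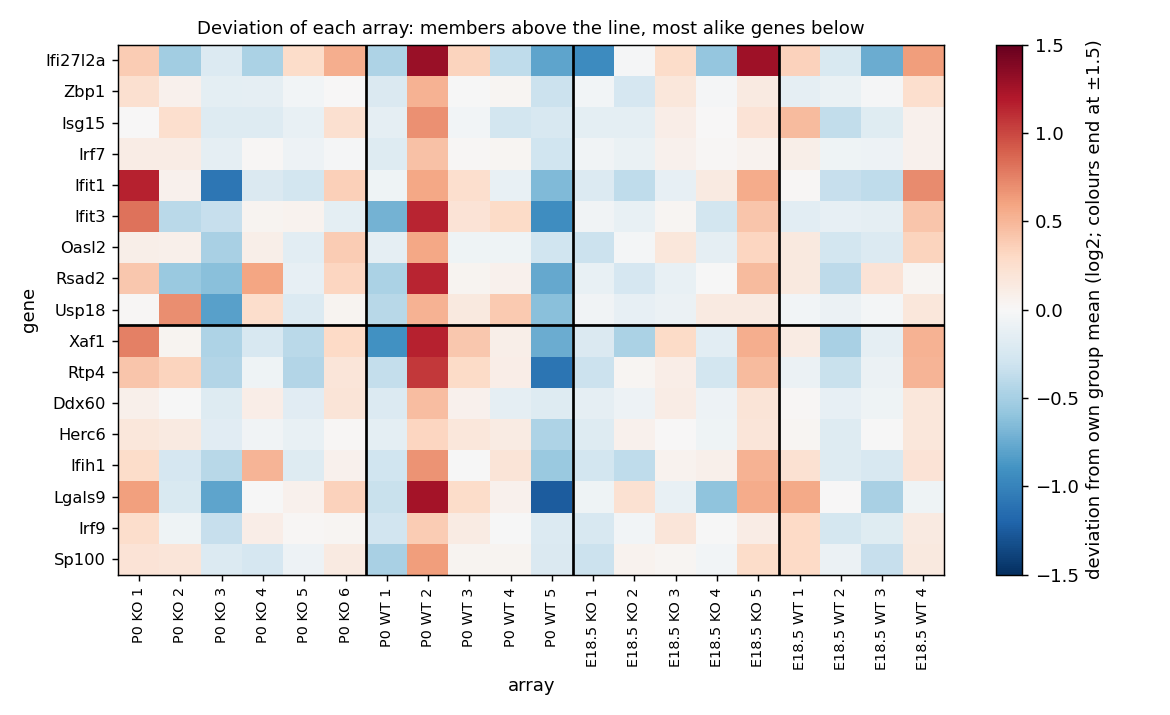
Deviation of each array (x axis) from its own group mean on the log2 scale (colour, ending at ±1.5) for the 9 interferon response genes (above the line) and the 8 genes most alike (below). P0 WT 2 and E18.5 KO 5 are raised in nearly every row, and P0 WT 5 and P0 KO 3 are lowered.

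By the same measure, the genes most like the mean of the 9, among 11999 tested genes that are not predicted genes or small RNAs, were Xaf1 (r = 0.934), Rtp4 (0.919), Ddx60 (0.916), Herc6 (0.874), Ifih1 (0.871), Lgals9 (0.865), Irf9 (0.864) and Sp100 (0.837). All but Lgals9 stand in the pathway lists used here. Xaf1, an interferon-induced pro-apoptotic protein, averaged 9.10 ± 0.47 in P0 KO and 8.09 ± 0.42 in E18.5 KO pancreas (SD, n = 6 and 5) and rose by 1.01 ± 0.33 (adjusted p = 0.0329). In WT its difference was 0.83 ± 0.36 (adjusted p = 0.163). Ddx60 (0.40 ± 0.11, adjusted p = 0.0136), Sp100 (0.60 ± 0.17, 0.0143), Irf9 and Ifih1 rose in KO as well, while Rtp4, Herc6 and Lgals9 did not pass in either genotype. None of the 8 passed with age in WT. The KO call of Xaf1 ended in 5 other settings (adjusted p 0.107 to 0.281) and without E18.5 KO 1, 2 or 4 or P0 KO 1 or 6 (up to 0.0881). Those of Ddx60, Sp100, Irf9 and Ifih1 ended with the sample number or the macrophage covariate and without the 4 arrays with high intestinal or muscle marker means, and that of Irf9 also without E18.5 KO 1 (0.0515).

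Markers of leukocytes were followed on the same arrays. Within groups, the mean of the 9 genes correlated with the mean of the neutrophil markers at r = 0.56, of the leukocyte markers at 0.51, of the liver markers at 0.44 and of the macrophage markers at 0.17 (20 arrays; 0.67 over the 9 E18.5 arrays and -0.12 over the 11 P0 arrays for macrophages). The macrophage marker mean, over 11 genes, ran from 7.08 to 7.56 in P0 KO and 7.17 to 7.61 in P0 WT pancreas, against 6.53 to 7.36 in E18.5 KO and 7.02 to 7.12 in E18.5 WT pancreas. Of these 11 markers 4 rose and 0 fell with age in KO (median 0.47), and 1 rose and 1 fell in WT (median 0.17). Over all tested genes 11.3% rose and 11.7% fell in KO, and 4.76% rose and 4.1% fell in WT. The 5 leukocyte markers ran from 6.16 to 6.70 in P0 KO and 6.21 to 6.56 in P0 WT, against 5.92 to 6.37 in E18.5 KO and 6.01 to 6.34 in E18.5 WT pancreas. The acinar marker mean lay between 15.78 and 16.41 on the P0 arrays and between 16.58 and 17.05 on the E18.5 arrays, without overlap. That difference came from 3 of the 9 acinar markers, the transcription factors Ptf1a, Rbpjl and Bhlha15, which fell in both genotypes (by 3.0, 2.61 and 1.9 in KO). The other 6 are secreted enzymes or their precursors, of which 4 sat at the ceiling. Cela1 and Cela2a lay just below it, with the same median in every group (19.54 and 19.47). The median change over the 9 was -0.05 in KO and 0.0 in WT. It rests on these 6, whose change the ceiling may hide. The 9 markers of T and NK cells stayed at or below an array mean of 4.76, and Siglech, which marks plasmacytoid dendritic cells, lay between 5.09 and 5.81. Other marker lists went in different directions with age. For endothelium, 6 of 7 differences were above 0 in KO and 7 in WT, beside 48.7% and 51.2% of all tested genes. None of these 7 markers passed in either genotype (medians 0.239 and 0.249). Of the 5 leukocyte markers, 2 rose and 0 fell in KO, and 0 passed in WT (medians 0.07 and 0.082). None of 7 tested neutrophil markers passed (medians 0.155 in KO and 0.046 in WT). The lists that follow held falls. Of 3 tested T and NK cell markers, 0 rose and 1 fell in each genotype (median -0.547 in KO and -0.465 in WT). Of 2 tested markers of lymphoid tissue stroma and spleen, 1 fell in KO and 0 in WT (-0.976 and -0.666). Of 7 tested intestinal markers, 2 fell in KO and 1 in WT (-1.475 and -0.346). In bulk pancreas, a change in the number of cells of a type and a change in RNA per cell cannot be told apart.

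With the macrophage marker mean as a covariate, an alternative added after the data were seen, Ifi27l2a still passed with age in KO, while Zbp1 (adjusted p = 0.131) and Irf7 (0.186) did not. With the leukocyte marker mean, Zbp1 (0.0715) and Irf7 (0.121) did not pass either. The differences themselves were 0.42 for Zbp1 and 0.28 for Irf7 with the macrophage covariate, close to those without it, and 0.33 and 0.23 with the leukocyte covariate. With the neutrophil marker mean, also added after the data were seen, Zbp1 passed (0.0169) and Irf7 did not (0.0539).

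The rest of the pathway was read in order from ligand to target. All 9 interferon ligand genes listed had a probe set, 5 passed the signal filter, and their group means lay between 3.53 and 5.51, around the array median. None of the 5 passed with age in limma in either genotype (0 at an unadjusted p under 0.05). Of 11 tested receptor and signal transducer genes, 4 rose with age in KO and 1 in WT. Beside this and the list counts that follow, 11.3% of all tested genes rose and 11.7% fell in KO, and 4.76% rose and 4.1% fell in WT. Jak2, a kinase of the interferon gamma receptor, rose in both (0.69 ± 0.11 in KO, adjusted p = 0.00029; 0.47 ± 0.12 in WT, adjusted p = 0.0213). Its WT call ended with a replicate block (0.0707), the sample number (0.0902) or the macrophage covariate (0.0754), and without E18.5 WT 1, 2 or 3 or P0 WT 3 (up to 0.0666). In KO the receptor subunits Ifngr1 (0.57 ± 0.15, adjusted p = 0.00972) and Ifnar2 (0.45 ± 0.10, 0.00355) and the DNA-binding factor Irf9 (0.46 ± 0.13, 0.017) rose too. None of them passed in WT, where Ifngr1 averaged 7.98 at P0 and 7.68 at E18.5, Ifnar2 10.60 and 10.35, and Irf9 5.87 and 5.65. Of 4 tested interferon regulatory factors other than Irf7 and Irf9, 0 passed in either genotype in limma and 0 had an unadjusted p under 0.05.

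Among 11 tested nucleic acid sensors and adaptors, 3 rose in KO, and 2 rose and 1 fell in WT. Tlr7, the endosomal receptor for single-stranded RNA, rose by 1.38 ± 0.15 in KO (adjusted p = 2.04e-05) and 0.81 ± 0.17 in WT (0.00701). Tbk1, the kinase that activates interferon regulatory factors, rose by 0.70 ± 0.12 in KO (0.000761) and 0.79 ± 0.14 in WT (0.00284). Tlr7 and Tbk1 passed in both genotypes in every setting tried and without any one array. Ifih1 (MDA5), a sensor of long double-stranded RNA, rose by 0.86 ± 0.21 in KO (0.00778). Its difference of 0.77 ± 0.24 in WT did not pass (0.0515), nor did the difference between these (0.09 ± 0.32, 0.981). Ticam1, the adaptor of Tlr3, was lower at P0 in WT (-0.57 ± 0.14, 0.0184), a call that ended in 2 other settings and without E18.5 WT 1 (0.0723). For Ticam1 too, the difference of the age effect between genotypes did not pass (0.30 ± 0.19, 0.782).

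Of 42 tested type I response genes other than the 9, 17 rose and 0 fell with age in KO (median 0.39), and 3 rose and 0 fell in WT (median 0.24), where 39 of 42 differences were above 0 (51.2% of all tested genes). In KO the largest were Ifi207 (2.19 ± 0.44, adjusted p = 0.00168), Ifi211 (1.90 ± 0.36, 0.00121) and Ifi204 (1.75 ± 0.43, 0.00683), nuclear proteins of the p200 family, and Slfn2 (1.13 ± 0.22, 0.00143). In WT the called genes were Eif2ak2 (PKR, a kinase activated by double-stranded RNA, 1.07 ± 0.31, adjusted p = 0.0375), the ubiquitin ligase Trim25 (0.69 ± 0.20, 0.0381) and Parp12 (0.54 ± 0.16, 0.0424). The genes named under 1 genotype leaned the same way in the other. In KO Eif2ak2 averaged 9.08 at P0 and 8.01 at E18.5, Trim25 10.41 and 9.75, and Parp12 7.18 and 6.61. In WT Ifi207 averaged 9.24 and 7.83, Ifi211 8.68 and 7.55, Ifi204 8.90 and 7.88, and Slfn2 6.34 and 5.90. The difference of the age effect between genotypes was called in limma for 0 of all tested genes, those of every list included. The KO count fell to 4 (Ifi207, Ifi211, Slfn2 and Slfn5) without those 4 arrays with high intestinal or muscle marker means. It fell to 3 (Eif2ak2, Ifi44l and Slfn2) with the running sample number as a covariate and to 1 (Ifi44l) with the macrophage marker mean as a covariate. The KO calls of Ifi207, Ifi211, Ifi204 and Slfn2 ended in 2, 2, 3 and 1 other settings (adjusted p up to 0.0778, 0.0719, 0.232 and 0.0527). The WT count moved between 0 and 6 over the other settings, and was 0 without E18.5 WT 2, E18.5 WT 3, P0 WT 2 or P0 WT 3. Between KO and WT, 0 of the 42 passed in limma at P0 (4 at an unadjusted p under 0.05) and 0 at E18.5 (0). The smallest p at P0 was that of Ifi44l (0.85 ± 0.25, adjusted p = 0.388).

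Genes of the interferon gamma response and of antigen presentation, of which 17 were tested, gave 5 rises and 1 fall in KO and 0 rises and 1 fall in WT. Iigp1 (0.87 ± 0.23, adjusted p = 0.00956), Gbp7 (0.73 ± 0.16, 0.00318) and Gbp3 (0.51 ± 0.13, 0.00789), GTPases that act against intracellular pathogens, rose in KO. None of them passed in WT, where Iigp1 averaged 6.04 at P0 and 5.25 at E18.5, Gbp7 7.14 and 6.85, and Gbp3 5.60 and 5.20. Psmb10, a subunit of the immunoproteasome, went the other way: it fell by 1.20 ± 0.16 in KO (8.4e-05) and by 0.58 ± 0.17 in WT (0.0449). Its WT call ended in 9 other settings and in 11 of the 20 fits with 1 array left out (adjusted p up to 0.159). Of 8 tested negative regulators 1 rose in KO, the deubiquitinase Usp25 (0.59 ± 0.12, 0.00162), beside 11.3% of all tested genes, and 0 passed in WT in limma (2 at an unadjusted p under 0.05). The KO calls of Ifngr1, Ifnar2, Iigp1, Gbp7 and Gbp3 ended with the macrophage marker mean or the running sample number as a covariate (adjusted p 0.0559 to 0.229).

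**Figure D4:**
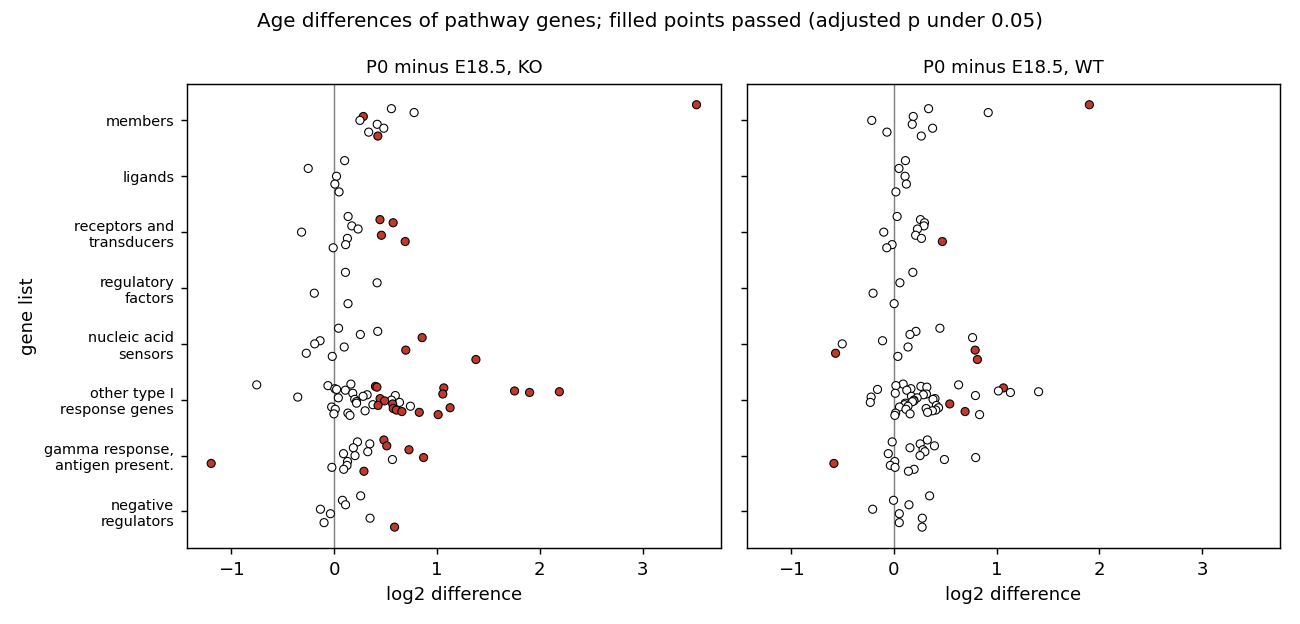
Log2 differences between P0 and E18.5 (x axis) in KO and in WT for every tested gene of the 9 (top row) and of the 7 pathway lists (y axis); filled points passed at an adjusted p under 0.05. Ifi27l2a, at 3.52 in KO and 1.90 in WT, lies to the right of every other gene shown, no ligand passed, no interferon regulatory factor other than Irf7 and Irf9 passed, and the point at -1.20 in KO is Psmb10.

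Several of the 9 have close relatives that could share probe signal. Ifit3 and Ifit3b correlated at r = 0.89 over the 20 arrays and Oasl2 and Oasl1 at 0.71, while Ifi27l2a and Ifi27l2b (mean 4.65) correlated at -0.02 and Ifit1 and Ifit1bl1 at 0.17. These values are taken over groups of different age, and sharing of probes was not tested.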

How the data were processed

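The deposited values are log2 signals of 20 arrays, which the authors obtained with RMA (Affymetrix Expression Console 1.4.1.46), per the submitters' processing notes. Per the labels' protocols, RNA came from a lipid tissue kit and was amplified and biotin-labelled with NuGEN reagents. The array's genome build is not given in the sources used here.

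Of 65956 probe sets, 30604 carried 1 gene symbol, 2146 several and 33206 none in the probe table; symbols were updated through GRCm38.p6. A gene was tested if its signal exceeded the median of 4 or more arrays (17993 of 30063). The 4 group means were estimated in one model with limma 3.58.1 in R 4.3.3 (lmFit, eBayes; 17.9 degrees of freedom after moderation), two-sided, with Benjamini-Hochberg adjustment over all tested genes and a call at an adjusted p under 0.05. On simulated data the fit recovered 44.0% of changes of 0.5 and 91.4% of changes of 1 on the log2 scale for P0 minus E18.5 in KO, 46.7% and 91.8% for KO minus WT at P0, and 42.9% and 78.7% for KO minus WT at E18.5. Each simulation changed many genes at once, such as 77 by 0.5 and 61 by 1 for KO minus WT at E18.5. The real KO minus WT comparisons called 2 genes at each age. With so few calls the adjusted cutoff is stricter, so these shares overstate the recovery in the real genotype comparisons.

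The 9 genes, the pathway and marker lists and the rule for named genes were chosen with earlier results of these data known. The named genes were the 9, Elapor1, up to 4 called genes per list with the largest change (with none called, up to 3 with the smallest p), and the 8 genes most alike. A gene was called weakly measured under 5.88. Whether replicate numbers pair the arrays was not settled, and the main fit did not pair them. Of 27 same-numbered pairs, 7 correlated above 0.1 (-0.30 to 0.24), and many of these pairs joined arrays of different age. Within an age, KO and WT arrays of the same number correlated at -0.03 to 0.24 at P0 and at 0.09 to 0.23 at E18.5. Pairs with different numbers were not compared. No 2 arrays held identical values. The alternatives were 2 filters, 3 normalizations, probe set means, trend and robust moderation, array weights, a replicate block, only the 2 groups compared, 3 marker covariates, the sample number as a covariate, leaving out 4 marker-rich arrays, and leaving out each array. The macrophage and neutrophil covariates and the contrast averaged over genotypes were chosen after seeing the data.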

Additional observations from a re-analysis of the deposited data

Results flagged for a closer look

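In 36 groups of arrays examined for the 9 genes, 4 held an array far from the others, where chance flags about 1 group in 20. The 9 genes moved together on the same arrays, so these groups are not independent and no excess over chance is shown. Isg15 was at 9.01 on P0 WT 2, the highest of 5 arrays, and Oasl2 at 5.86 on the same array. Ifit3 was at 7.96 on P0 KO 1, the highest of 6, and at 6.68 on E18.5 WT 4, the highest of 4. All 4 lie above the rest of their group, and P0 WT 2 is also the array with the highest mean of the 9 genes.

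For Isg15 the difference between KO and WT took opposite signs at the 2 ages. Every KO array lay above the WT mean at P0 and below it at E18.5. The WT mean at each age included 1 array at 9.01 or above. At E18.5 the highest KO array (8.54) lay just below the WT mean (8.55). The effect at P0 exceeded that at E18.5 by 0.47 on the log2 scale, and the test of this difference did not pass (limma adjusted p = 0.748).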

How the results depend on the processing

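The genotype counts stayed at 0 in limma at both ages, in every setting and without any one array. So did the count for the difference between ages. Irf7 and Oasl2 did not pass the stricter signal filter and were not tested in that setting. With age in KO, 3 of 9 became 1 (Ifi27l2a) with a replicate block, the sample number, the leukocyte or the macrophage covariate, or without the 4 arrays with high intestinal or muscle marker means; leaving out 1 array gave 1 to 4. In WT, 1 became 0 with the sample number or the macrophage covariate, and leaving out 1 array gave 0 to 2. Averaged over genotypes, 4 became 1 with the sample number, the leukocyte or the macrophage covariate, and leaving out 1 array gave 4 to 5. The other type I response genes called in KO (17) became 3 with the sample number, 4 without those 4 arrays and 1 with the macrophage covariate, and 14 to 19 with 1 array left out. In WT (3) they became 0 without a signal filter, with a replicate block, or with the leukocyte or macrophage covariate, 1 with the compared groups alone or the sample number, 6 with array weights, and 0 to 4 with 1 array left out. Calls of the smaller lists ranged from 1 to 6 (receptors, KO), 0 to 2 (receptors, WT), 2 to 4 (sensors, KO), 2 to 5 (sensors, WT), 1 to 7 (gamma response, KO) and 0 to 2 (gamma response, WT). Where age calls ended, the cause was not tested; the sample number runs with age and leaves little of the contrast, and removing arrays leaves fewer samples. Whether replicate numbers pair the arrays was not settled, and the block left no P0 minus E18.5 call of the 9 genes in KO other than Ifi27l2a.

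All turned signs were of differences that did not pass. After quantile normalization, signs turned in P0 minus E18.5 averaged for Isg15 (-0.033). After cyclic loess, signs turned in P0 minus E18.5 averaged for Isg15 (-0.014). With a replicate block, signs turned in P0 minus E18.5 averaged for Isg15 (-0.001), in KO minus WT at P0 for Ifit1 (-0.004), in KO minus WT at E18.5 for Usp18 (0.008). With the sample number as a covariate, signs turned in P0 minus E18.5 averaged for Isg15 (-0.093), in P0 minus E18.5 in WT for Ifnk (-0.316), Rtp4 (-0.036) and Lgals9 (-0.07). Without the 4 arrays with high intestinal or muscle marker means, signs turned in P0 minus E18.5 averaged for Isg15 (-0.002), in KO minus WT at E18.5 for Irf7 (0.018), Ifit1 (0.278), Oasl2 (0.139), Rsad2 (0.091) and Usp18 (0.061), in genotype effect between ages for Ifit1 (-0.166), Oasl2 (-0.005) and Rsad2 (-0.142), in KO minus WT at P0 for Rsad2 (-0.05), in P0 minus E18.5 in WT for Ifnk (-0.01). With the leukocyte covariate, signs turned in P0 minus E18.5 averaged for Isg15 (-0.033), in KO minus WT at P0 for Ifit3 (0.035), in KO minus WT at E18.5 for Rsad2 (0.03), in P0 minus E18.5 in WT for Rtp4 (-0.06). With the macrophage covariate, signs turned in P0 minus E18.5 averaged for Isg15 (-0.06) and Usp18 (-0.017), in KO minus WT at E18.5 for Oasl2 (0.008) and Usp18 (0.023), in P0 minus E18.5 in KO for Ifna4 (0.011), in P0 minus E18.5 in WT for Irf2 (-0.093). With the neutrophil covariate, signs turned in KO minus WT at P0 for Ifit1 (-0.05) and Rsad2 (-0.024). With 1 array left out, signs also turned in KO minus WT at E18.5 for Ifit1 (-0.291 to 0.087), Oasl2 (-0.179 to 0.021), Rsad2 (-0.167 to 0.032) and Usp18 (-0.085 to 0.005), in KO minus WT at P0 for Irf7 (-0.03 to 0.155), Ifit1 (-0.164 to 0.284), Ifit3 (-0.264 to 0.254) and Rsad2 (-0.124 to 0.353), in genotype effect between ages for Ifit1 (-0.019 to 0.435), Ifit3 (-0.373 to 0.145) and Rsad2 (-0.086 to 0.391), in P0 minus E18.5 averaged for Isg15 (-0.066 to 0.099), in P0 minus E18.5 in WT for Usp18 (-0.196 to 0.091), Ifnk (-0.044 to 0.229), Irf2 (-0.146 to 0.244), Rtp4 (-0.128 to 0.413) and Lgals9 (-0.012 to 0.615), in P0 minus E18.5 in KO for Ifnl3 (-0.023 to 0.117).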
